A study of Mus musculus with 8 samples.

Results

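The chemokines and chemokine receptors are the 59 genes, of 19348 in the count table, whose symbol begins with Ccl, Cxcl, Cx3cl, Xcl, Ccr, Cxcr, Cx3cr, Xcr or Ackr followed by a digit. They comprised 36 ligands, 19 signalling receptors and 4 atypical receptors. No measured value was used to choose them. Chemokines are small secreted proteins that guide leukocytes along concentration gradients by binding G protein-coupled receptors, and they are grouped by the spacing of their first cysteines (CC, CXC, CX3C and XC). Atypical receptors bind the same ligands without G protein signalling and take them up, transport them or present them. In adipose tissue chemokines are known for recruiting monocytes and macrophages in obesity, and in liver for guiding lymphocytes and monocytes through the sinusoids.

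RNA-seq libraries came from liver and from eWAT, the white fat pad along the epididymis. In each tissue 2 carried the label Crtc1-/- and 2 the label Crtc1+/+, 8 in all. All mice were C57BL/6 males aged 12 weeks, kept on normal chow under a cycle of 12 h light and 12 h dark, and they were killed after a fast of 16 h. The Crtc1-/- allele was a whole-body CRISPR/Cas9 deletion of exons 2 to 4, and Crtc1+/+ mice were littermates from heterozygous crosses. CRTC1 is a coactivator of the transcription factor CREB. The study's methods describe 2 mice of each genotype and the libraries of a group as independent biological replicates. The labels do not say whether liver and eWAT libraries with the same number came from 1 mouse.

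The counts summed to between 16560070 and 19721464 per library, and the limit of detection, set at 3 counts, lay between 0.152 and 0.181 CPM, a unit that scales counts by the size of the library. CPM are given on edgeR's TMM scale within each tissue, in the order replicate 1 and replicate 2. Crtc1 read 58.5 and 33.6 CPM under the Crtc1-/- label in eWAT against 32.5 and 33.7 CPM under the Crtc1+/+ label, and 22.1 and 18.0 against 11.7 and 9.86 CPM in liver. Its counts were therefore not lower where the label is Crtc1-/-, the counts per gene do not separate the deleted exons, and every direction below is between libraries labelled KO (Crtc1-/-) and libraries labelled WT (Crtc1+/+). 3 eWAT libraries stood apart by cell type markers. Both eWAT libraries labelled WT carried epididymal epithelium transcripts, with 10 marker genes summing to 61841 and 75902 CPM against 23.6 and 13.5 CPM under the KO label. In liver the same 10 markers summed to 74.3 and 10.0 CPM under the KO label and to 1.95 and 1.63 CPM under the WT label. The part of these transcripts in the liver values was not tested. Replicate 2 of eWAT labelled KO carried hepatocyte transcripts, with 7 markers summing to 107716 CPM against between 570.4 and 4518 CPM in the other eWAT libraries. Replicate 1 of eWAT labelled WT carried the most lymphocyte transcripts, with 7 T cell markers summing to 83.2 CPM and 4 B cell markers to 52.5 CPM. The adipocyte markers, which define the labelled tissue, summed to 12234 and 7910.0 CPM under the KO label and to only 533 and 872 CPM under the WT label. In a bulk library, fewer cells of a type and less RNA per cell cannot be told apart.

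Of the 59 genes, 3 had no count in any library once counts were rounded (Ccl20, Ccl21b and Ccr1l1), and 8, those included, had 3 counts or fewer in every library. The filter on low counts left 41 genes to test in eWAT and 21 in liver, 20 of them in both. Cxcl13 was tested in liver alone, and 17 genes were tested in neither tissue, among them the neutrophil-related Cxcl2, Cxcl5, Cxcr1 and Cxcr2. A gene can pass that filter through 1 group alone, so counts over the tested genes are descriptions. In eWAT the summed level of all 59 genes was 1579 and 908 CPM under the KO label and 665 and 326 CPM under the WT label. In liver it was 339 and 298 CPM against 259.7 and 291 CPM.

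The most abundant members per transcript length (FPKM, which divides fragments by the length of the transcript and the size of the library) in eWAT were Ccl21a, Ccl5, Cxcl12, Ccl6, Ccl8, Ccl21c, Ccl27a and Ccl9. Ccl21a, a ligand of CCR7 that guides T cells and dendritic cells into lymphatic vessels and lymph nodes, was at 435 and 24.2 FPKM under the KO label and at 326 and 32.9 FPKM under the WT label. Ccl5, a ligand made largely by T and NK cells, followed at 178 and 15.5 FPKM against 116 and 9.14 FPKM. For both genes the replicates labelled 1 were high and those labelled 2 low under either genotype label, so the mean level over eWAT rests on a pair of libraries. Cxcl12, the CXCR4 ligand that stromal and endothelial cells make and that retains haematopoietic cells, varied far less, at 100.1 and 109.6 FPKM against 43.2 and 36.9 FPKM. All 8 of these genes overlapped their neighbours in the order over the 4 eWAT libraries, with Ccl6 ranging from 10.5 to 147 FPKM, Ccl8 from 2.86 to 116 FPKM and Ccl9 from 3.68 to 42.0 FPKM. In liver Cxcl12 was the most abundant member, at 54.9 and 64.3 FPKM in the libraries labelled KO and 67.4 and 80.1 FPKM in those labelled WT. Ccl9 and Ccl27a came next, with means over the 4 liver libraries of 26.9 and 20.8 FPKM and ranges of 18.3 to 44.6 and 12.3 to 35.2 FPKM, which overlap. Ccl5, Ccl21a, Ccl6, Cxcl10 and Cxcl1 had liver means of 12.5, 7.35, 6.27, 4.86 and 4.09 FPKM, and neighbours in that order overlapped in their ranges. The reads of Ccl21a, Ccl21b and Ccl21c, and of Ccl27a and Ccl27b, were shared between near-identical genes, since their counts were not whole numbers in most libraries in which they were detected, and their split is uncertain.

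**Figure D1:**
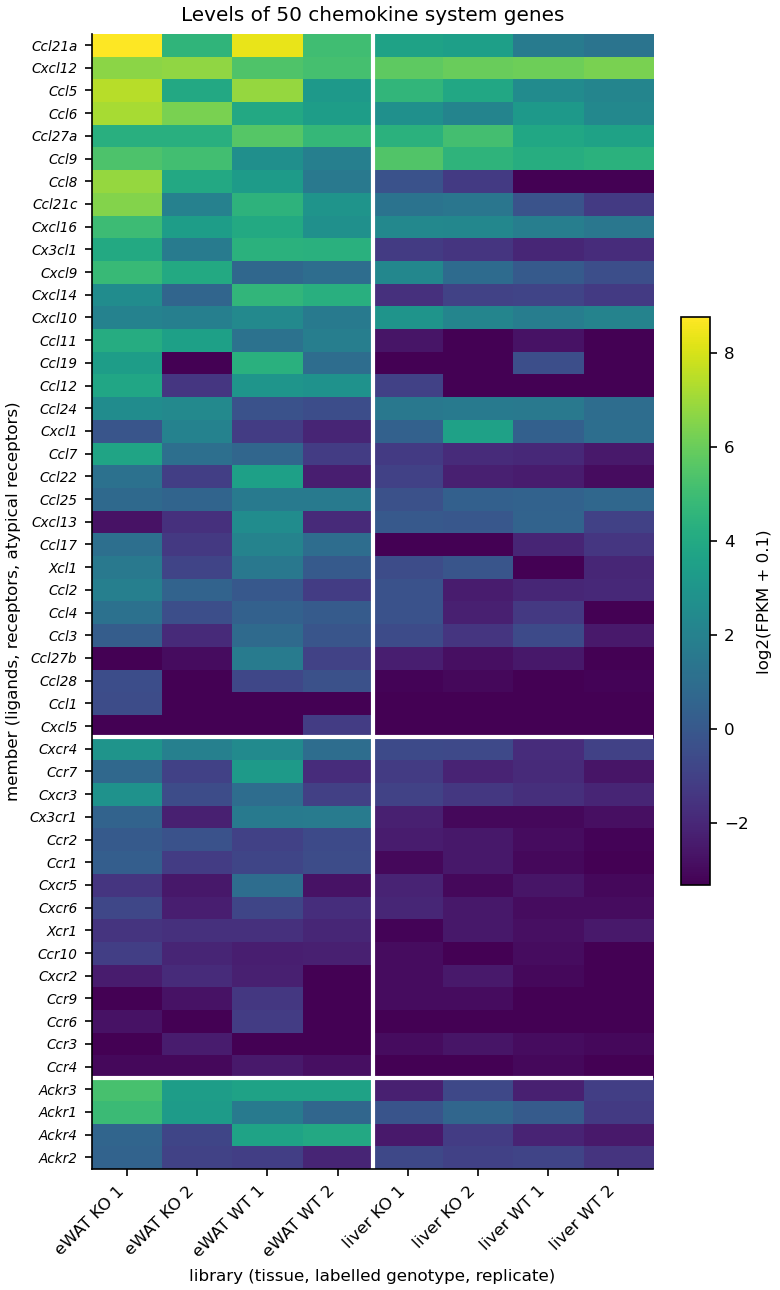
Levels of 50 members with more than 3 counts in some library, as log2(FPKM + 0.1), with members as rows (ligands, receptors and atypical receptors, divided by white lines, each ordered by mean FPKM) and the 8 libraries as columns (liver at the right of the white line). Cxcl12 was high in all 8 libraries (36.9 to 109.6 FPKM), whereas Ccl21a ranged from 2.45 to 435 FPKM.

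To ask how the chemokine system differed with Crtc1 genotype in fat, the labelled genotypes were compared within eWAT. Under the KO label 7 members were higher and 1 was lower at an adjusted p under 0.05 (edgeR's quasi-likelihood test, Benjamini-Hochberg adjustment over 15391 genes). The 7 were the ligands Cxcl9, Ccl6, Ccl9, Ccl24, Ccl11 and Cxcl12 and the atypical receptor Ackr1, and the 1 that was lower was the atypical receptor Ackr4. Over all genes tested, 6.65% were called higher and 5.54% lower, against 17.1% and 2.44% of the 41 members. The study's threshold (unadjusted p under 0.01 and a log2 fold change over 1 in size) gave the same 8 members, where 8.37% of all genes passed it as higher and 7.54% as lower. The median log2 fold change was 0.71 over the 41 members and -0.05 over all genes, and 27 of the 41 values were positive. An unadjusted p under 0.05 was found for 13 members (31.7%) against 33.3% of all genes. The groups did not overlap for 15 members that were higher (36.6%) and 5 that were lower (12.2%), where 31.3% and 35.4% of all genes did so. With the replicate number added to the fit as a block, no gene was called. The adjusted p of the 8 members then lay between 0.0543 and 0.0638. All 8 calls were absent without either replicate of eWAT labelled WT, when 1 WT-labelled library remained and no gene at all was called.

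**Figure D2:**
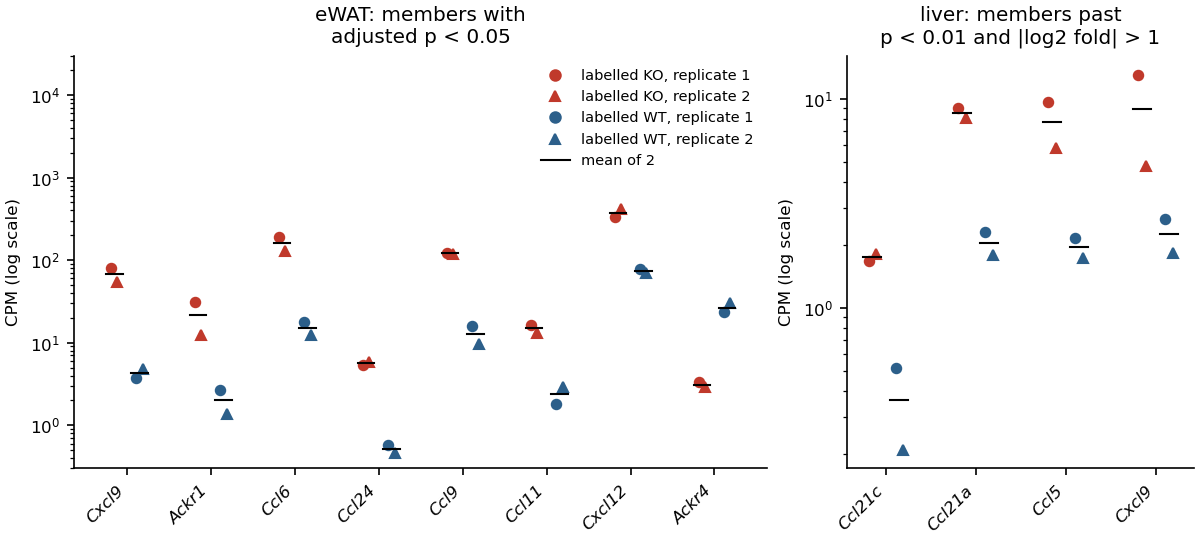
CPM on a log axis in each library for the 8 members that passed in eWAT (left) and the 4 past the study's threshold in liver (right), with red for libraries labelled KO, blue for WT, circles and triangles for replicates 1 and 2 and bars for the mean of 2. The red and blue points did not overlap for any of these 12 gene and tissue pairs, and Ackr4 was the one with the blue points above.

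Cxcl9, an interferon-gamma-induced ligand of CXCR3 that draws activated T cells, had the largest log2 fold change of the 8 members called. The KO-labelled libraries held 79.8 and 54.9 CPM (67.4 ± 17.6, SD, n = 2) and the WT-labelled ones 3.75 and 4.77 CPM (4.26 ± 0.720, SD, n = 2). Both KO-labelled libraries were above both WT-labelled ones, a log2 fold change of 3.98 (SE 0.39, adjusted p = 0.0169). Its neighbour Cxcl10, a further ligand of CXCR3 and the member next to it on chromosome 5, was at 3.85 and 4.30 CPM against 4.28 and 2.64 CPM, and the groups overlapped (log2 fold change 0.23, SE 0.58, adjusted p = 0.798). Cxcr3, the receptor, was at 10.4 and 1.11 CPM against 2.40 and 0.518 CPM, with overlapping groups.

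Ccl6 and Ccl9, neighbouring CC ligands of CCR1 that mouse macrophages and other myeloid cells make, were higher together. Ccl6 was at 192 and 129.9 CPM under the KO label and at 17.8 and 12.3 CPM under the WT label, a log2 fold change of 3.42 (SE 0.39, adjusted p = 0.0178). Ccl9 was at 122 and 119 CPM against 16.0 and 9.59 CPM, a log2 fold change of 3.24 (SE 0.37, adjusted p = 0.0181). For both, the lowest KO-labelled library was several times above the highest WT-labelled one. They lie in a group of 5 members on chromosome 11 (83525778 to 83664683, GRCm38), and the others in it did not pass. Ccl5 was at 70.1 and 7.56 CPM against 39.4 and 3.16 CPM (log2 fold change 0.87, SE 1.43). Ccl3 and Ccl4, inflammatory CC ligands, stayed at or under 1.26 CPM in all 4 libraries. The receptor Ccr1 was at 3.08 and 1.11 against 1.11 and 1.45 CPM and overlapped between labels.

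Ccl11 and Ccl24 are eotaxins, ligands of CCR3 on eosinophils. Ccl11 was at 16.6 and 13.2 CPM under the KO label and at 1.83 and 2.90 CPM under the WT label, a log2 fold change of 2.65 (SE 0.49, adjusted p = 0.0358). Ccl24 was at 5.44 and 5.76 CPM against 0.577 and 0.467 CPM, a log2 fold change of 3.40 (SE 0.63, adjusted p = 0.0359). Neither pair of groups overlapped, although Ccl24 rests on 12 and 9 counts in the libraries labelled WT. With library-size scaling both calls were lost (adjusted p = 0.0534 for Ccl11 and 0.0501 for Ccl24), as they were without replicate 2 labelled KO (0.0592 and 0.0789), and that of Ccl11 also without replicate 1 labelled KO (0.0523). Ccr3 was detected above 3 counts only in replicate 2 of eWAT labelled KO, at 0.347 CPM. The eosinophil markers Siglecf and Epx were at or under 0.110 CPM in every eWAT library, and Prg2 at or under 0.934 CPM.

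Cxcl12 reached 337 and 419 CPM where the label was KO (378 ± 57.8, SD, n = 2) and 78.2 and 70.8 CPM where it was WT (74.5 ± 5.26, SD, n = 2). The groups lay far apart, with a log2 fold change of 2.34 (SE 0.32, adjusted p = 0.0223). On the deposited FPKM the difference was smaller, at 1.31 on log2(FPKM + 1) and 1.33 on log2(FPKM + 0.1), and passed in limma (adjusted p = 0.0310 and 0.0308). Its signalling receptor Cxcr4 was at 12.8 and 7.49 CPM against 7.89 and 2.75 CPM, with overlapping groups. Ackr3, which takes up CXCL12, was at 73.3 and 24.2 CPM against 20.5 and 21.0 CPM (log2 fold change 1.23, SE 0.58, adjusted p = 0.205), so its replicates labelled KO differed 3.03-fold from each other.

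The atypical receptors moved in both directions. Ackr1, the Duffy antigen of venular endothelium and erythroid cells, was at 31.0 and 12.4 CPM under the KO label against 2.65 and 1.35 CPM under the WT label, a log2 fold change of 3.44 (SE 0.68, adjusted p = 0.0414). Its call was lost with upper-quartile scaling (adjusted p = 0.0510), library-size scaling (0.0501) and without replicate 1 labelled KO (0.0555). Ackr4, which removes CCL19, CCL21 and CCL25, was at 3.30 and 2.91 CPM (3.11 ± 0.270, SD, n = 2) against 23.2 and 29.9 CPM (26.5 ± 4.69, SD, n = 2). It was lower in both KO-labelled libraries, with a log2 fold change of -3.09 (SE 0.39, adjusted p = 0.0198). Ackr2, which scavenges inflammatory CC ligands, was at 3.68 and 1.46 against 0.962 and 0.363 CPM and did not pass (log2 fold change 1.94, SE 0.88, adjusted p = 0.196).

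The sequences before 4 of these ligand genes are shown. Ccl6 and Ccl9 are neighbours that moved together, Cxcl12 is the abundant one with the short form of the CRE (TGACG), the element that CREB, the partner of CRTC1, binds, and Cxcl9 has an IRF core (GAAANNGAA). Each is the 250 bases before the start in the RefSeq promoter table of GRCm38.p6, on the strand of the gene, with motif matches in capitals.
Cxcl9, chr5:92328080-92328329, minus strand: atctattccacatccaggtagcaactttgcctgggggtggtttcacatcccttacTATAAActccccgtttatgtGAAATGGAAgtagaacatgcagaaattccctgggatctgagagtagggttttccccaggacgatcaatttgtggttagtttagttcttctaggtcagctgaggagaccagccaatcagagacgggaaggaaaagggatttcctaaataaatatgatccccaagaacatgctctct
Ccl6, chr11:83593088-83593337, minus strand: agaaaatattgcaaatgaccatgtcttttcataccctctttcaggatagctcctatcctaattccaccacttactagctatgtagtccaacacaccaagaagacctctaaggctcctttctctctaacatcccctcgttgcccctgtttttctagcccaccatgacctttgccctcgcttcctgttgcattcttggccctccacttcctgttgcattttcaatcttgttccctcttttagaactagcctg
Ccl9, chr11:83578637-83578886, minus strand: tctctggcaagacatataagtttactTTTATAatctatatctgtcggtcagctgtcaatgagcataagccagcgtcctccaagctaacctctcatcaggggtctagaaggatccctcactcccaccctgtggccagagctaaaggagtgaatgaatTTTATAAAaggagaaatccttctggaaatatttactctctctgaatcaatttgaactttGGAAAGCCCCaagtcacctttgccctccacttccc
Cxcl12, chr6:117168285-117168534, plus strand: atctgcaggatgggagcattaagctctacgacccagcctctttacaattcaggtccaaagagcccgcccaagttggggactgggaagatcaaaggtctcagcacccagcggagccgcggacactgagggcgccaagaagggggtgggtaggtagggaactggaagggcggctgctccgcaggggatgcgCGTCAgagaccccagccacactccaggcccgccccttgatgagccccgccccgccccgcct

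In these windows, searched on both strands, Cxcl9 held the IRF core from -175 to -167 and a TATA box (TATAAA) from -195 to -190, Ccl9 a match to the kappaB consensus from -35 to -26, a TATA box on the other strand from -224 to -219 and overlapping ones on both strands from -94 to -87, and Cxcl12 the short CRE, on the other strand, from -61 to -57. Ccl6 held none of the motifs searched. Of the 45 members with an entry, 7 held the short CRE (15.6%, against 19.8% of 27025 gene starts) and none the full CRE TGACGTCA (1.77% of all starts). The IRF core was in 8 members (17.8%, against 8.18%), the kappaB consensus in 8 (17.8%, against 4.46%), the GAS element TTCNNNGAA in 4 (8.89%, against 8.13%) and the TATA box in 14 (31.1%, against 14.3%). Beyond Cxcl9 and Ccl9, members with the IRF core or the kappaB match included Cxcl10 and Cxcl1, whose eWAT values did not pass the test. The 14 members without an entry, among them Ccl2, Ccl5, Ccl11, Ccl24 and Cxcl16, were not searched.

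The monocyte-attracting ligands include Ccl2, also known as Mcp1. Ccl2 was at 2.42 and 1.11 CPM under the KO label and at 0.529 and 0.207 CPM under the WT label, that is, 44, 16, 11 and 4 counts. The groups did not overlap, but the log2 fold change of 2.24 (SE 0.86, adjusted p = 0.149) did not pass. It did pass with limma, the authors' tool, on log2(FPKM + 1) and log2(FPKM + 0.1) (adjusted p = 0.0461 and 0.0444), and not with DESeq2 (0.165). Ccl7 was at 8.68 and 1.67 CPM against 0.866 and 0.207 CPM (log2 fold change 3.25, SE 1.19, adjusted p = 0.135). Ccl12 overlapped (5.60 and 0.139 against 2.69 and 2.49 CPM), and their receptor Ccr2 was at 3.46 and 3.05 CPM against 1.20 and 1.71 CPM, with an adjusted p of 0.244. Ccl8, a CCR8 ligand of resident macrophages and the gene after Ccl12 on chromosome 11, was at 43.3 and 7.15 CPM against 3.13 and 0.933 CPM, with an adjusted p of 0.0966 for a log2 fold change of 3.63 (SE 1.11). The ligands Ccl2, Ccl7, Ccl12 and Ccl8 form a group of 6 members with Ccl11 and Ccl1, from 82035577 to 82179812. All but Ccl1 were tested, the 5 values were positive and 1 passed. On chromosome 8, in contrast, the 3 neighbours Ccl22, Cx3cl1 and Ccl17 all had negative values and none passed.

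Members that did not pass but whose groups lay apart in the other direction were Cxcl14, Cx3cl1, Cx3cr1 and Ccl25. Cxcl14, an epithelial and stromal ligand, was at 9.78 and 2.98 CPM under the KO label and at 35.7 and 29.2 CPM under the WT label (log2 fold change -2.34, SE 0.65, adjusted p = 0.0787). Cx3cl1, a membrane-bound ligand of neurons, epithelium and endothelium, was at 48.9 and 11.7 CPM against 55.7 and 54.9 CPM. Its receptor Cx3cr1, found on monocytes and tissue macrophages, was at 4.83 and 0.486 CPM against 9.28 and 10.5 CPM. In both genes replicate 2 of eWAT labelled KO was the low one, and the values did not pass (adjusted p = 0.404 and 0.263). Ccl25, a ligand of gut and thymus epithelium, was at 1.48 and 1.53 CPM against 2.31 and 2.38 CPM.

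**Figure D3:**
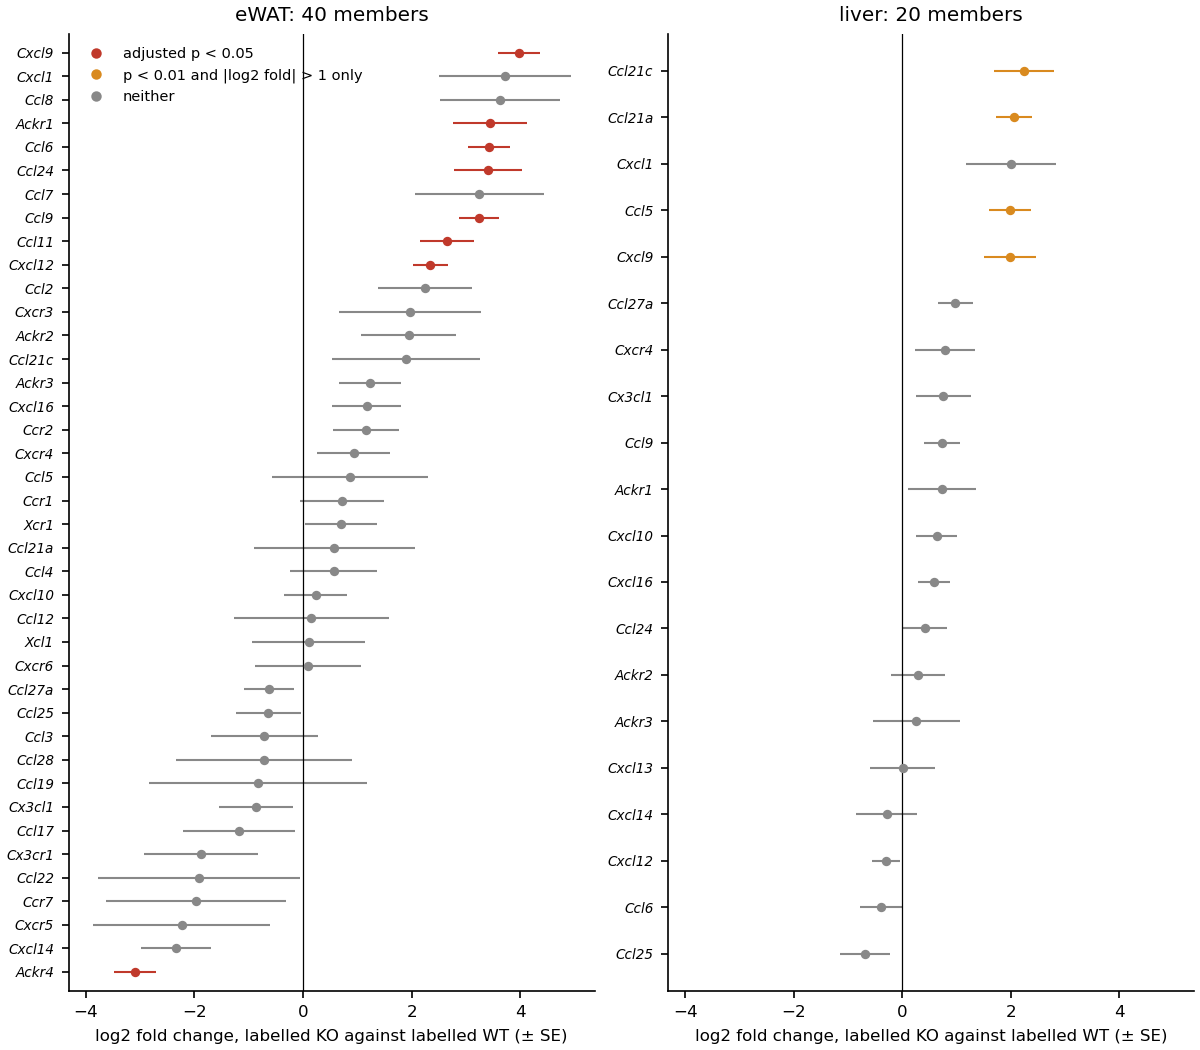
Log2 fold change with its standard error, libraries labelled KO against WT, for 40 of the 41 members tested in eWAT (left) and 20 of the 21 tested in liver (right), ordered by value, with red for an adjusted p under 0.05 and orange for the study's threshold only. In eWAT 27 of the values drawn were positive and 13 negative, and in liver 16 were positive and 4 negative.

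Several homing members followed the library and not the genotype label. Ccr7, the receptor of CCL19 and CCL21 on naive T cells and mature dendritic cells, was at 3.02 and 0.902 CPM under the KO label and at 15.1 and 0.311 CPM under the WT label. Cxcr5, which brings B cells into follicles, was at 0.659 and 0.208 CPM against 4.09 and 0.104 CPM. Ccl22, a dendritic cell ligand of CCR4, was at 3.74 and 0.763 CPM against 16.9 and 0.156 CPM. Replicate 1 labelled WT was the highest library for all 3 of them, as it was for the T and B cell marker sums. Cxcl13, the ligand of CXCR5, was at 5.15 CPM in that library and at or under 0.278 CPM in the other 3, and Ccl19 was at 6.21 and 0 CPM against 10.1 and 0.985 CPM. The T cell markers summed to 48.1, 8.81, 83.2 and 5.13 CPM and the B cell markers to 12.3, 7.42, 52.5 and 0.726 CPM in the order KO 1, KO 2, WT 1 and WT 2, and 0 of 7 and 0 of 3 tested markers passed. In eWAT the log2 fold change of Ccl21a was 0.58 (SE 1.48), and it was -2.38 without replicate 1 labelled KO. The markers of lymphatic endothelium, which makes CCL21, had values of both signs, which their sum of 101, 66.1, 98.4 and 101 CPM in the same order does not show. Flt4 passed as higher under the KO label (53.3 and 27.8 against 9.57 and 5.29 CPM, adjusted p = 0.0490), and Lyve1 had a positive value. That of Prox1 (1.48 and 18.0 against 1.97 and 1.45 CPM) rested on replicate 2 labelled KO, the library with hepatocyte transcripts. Prox1 was at 15.8 to 29.0 CPM in the liver libraries. Pdpn, which epithelium also makes, was at 30.8 and 5.41 against 79.2 and 89.8 CPM and did not pass. The part of lymphoid and lymphatic cells in these values was not tested.

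**Figure D4:**
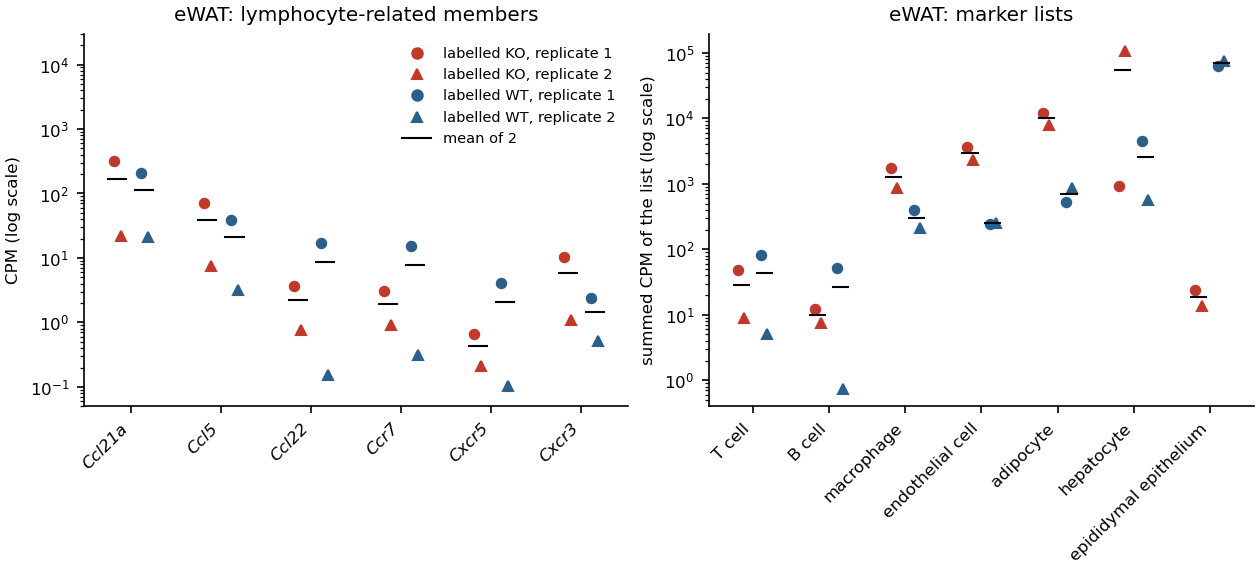
eWAT values in each library on log axes, as CPM of 6 members (left) and as summed CPM of 7 marker lists (right), with red for libraries labelled KO, blue for WT, circles and triangles for replicates 1 and 2 and bars for the mean of 2. Circles lie above triangles for all 6 members under both labels, as for T and B cell markers, whereas endothelial and adipocyte markers separate by label.

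Markers of several cell types moved with the labels in eWAT, beside the members above. Of 7 endothelial markers 7 passed, all higher under the KO label (median log2 fold change 3.26), and they summed to 3673 and 2323 CPM against 241 and 254 CPM. The most abundant were Cdh5, Pecam1 and Tie1, and Cdh5 had a log2 fold change of 4.11 (SE 0.45, adjusted p = 0.0173). Of 6 adipocyte markers 5 passed, all higher (median 3.77). Fibroblast markers went both ways, with 6 of 7 values positive. Dpt passed as higher (log2 fold change 3.58, SE 0.45) and Pdgfra as lower (-2.71, SE 0.52). On the neutrophil and dendritic cell lists Elane and Zbtb46 passed as higher, and on the NK cell list Klrb1c passed as lower (-5.68, SE 0.69). Of 9 macrophage markers 8 had positive values and 2 passed, Csf1r and Adgre1, and their sum was 1728 and 850.1 CPM against 401 and 210.3 CPM (median 2.13). The 10 epididymal epithelium markers all passed as lower, the direction of Ackr4, which passed, and of Cxcl14, Cx3cl1 and Cx3cr1, which did not. For Cx3cl1 the low library was replicate 2 labelled KO (11.7 CPM). Replicate 1 labelled KO was at 48.9 CPM, near the 55.7 and 54.9 CPM under the WT label. With the listed epididymis and sperm markers removed before scaling, the same 8 members were called. That setting changes the scaling and not a member's own counts, so it cannot show how much epididymal RNA enters them. Without replicate 2 labelled KO, the library with hepatocyte transcripts, the 8 kept their sign. The 7 that were higher had log2 fold changes from 2.15 (Cxcl12) to 4.19 (Cxcl9), and Ackr4 had -3.05. How far cell composition enters the members' values was not tested.

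Over all genes tested in eWAT, 48.5% had positive values. Of the chemokine pathway outside the symbol rule, all 7 further ligands and receptors had positive values, and 3 passed. Cmklr1, the chemerin receptor, was at 202 and 235 CPM under the KO label and at 13.3 and 13.7 CPM under the WT label (log2 fold change 4.01, SE 0.30, adjusted p = 0.0153). Rarres2, which encodes chemerin, was at 421 and 555 CPM against 68.6 and 30.3 CPM (log2 fold change 3.30, SE 0.53, adjusted p = 0.0280). Pf4, a platelet CXC chemokine, was at 65.0 and 22.4 CPM against 6.54 and 4.35 CPM (log2 fold change 3.003, SE 0.64, adjusted p = 0.0479). Receptor and ligand of the chemerin pair were thus both higher under the KO label, without overlap. Of 29 genes that act below the receptors 23 had positive values, and Arrb1 (log2 fold change 2.09, SE 0.37), a beta-arrestin, and Lyn (1.75, SE 0.32), a Src family kinase, passed, a share near that of all genes called higher (6.65%). Of 14 tested inducers and their pathway genes 13 had positive values and 4 passed, Irf7 (2.61, SE 0.40), Irf1 (1.86, SE 0.31), Tnfrsf1a (1.75, SE 0.36) and Nfkbia (1.47, SE 0.30). The cytokines themselves were low, with Ifng at or under 0.275 CPM, Tnf at or under 0.824 CPM and Il6 without a count in any library. No gene of these 3 lists passed in liver (7, 25 and 15 tested).

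In liver no member passed an adjusted p under 0.05, where 0.0598% of all 11707 genes were called higher and 0.0256% lower, while 6 members (28.6%) had an unadjusted p under 0.05 in edgeR against 17.3% of all genes. DESeq2 called 3 of them, Ccl21a, Ccl5 and Cxcl9, and 2.66% of all genes. At the study's threshold 4 of the 21 members (19.0%) were higher and 0 lower, where 2.84% and 1.43% of all genes passed. The 4 were Ccl21a, Ccl21c, Ccl5 and Cxcl9. The median was 0.63 over the members and 0.00 over all genes. Groups did not overlap for 11 members that were higher (52.4%) and 2 that were lower, Ccl25 and Cxcl12 (9.52%), where 25.8% and 26.4% of all genes did so.

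Ccl21a read 9.01 and 8.05 CPM in liver labelled KO (8.53 ± 0.679, SD, n = 2) and 2.31 and 1.78 CPM in liver labelled WT (2.05 ± 0.372, SD, n = 2), a log2 fold change of 2.06 (SE 0.34, adjusted p = 0.0668). Its near copy Ccl21c, at 1.68 and 1.81 against 0.513 and 0.210 CPM, shares its reads and is not a separate observation. Ccl5 was at 9.58 and 5.83 CPM against 2.16 and 1.73 CPM (log2 fold change 1.99, SE 0.38, adjusted p = 0.101). Cxcl9 was at 13.0 and 4.78 CPM against 2.67 and 1.84 CPM (log2 fold change 1.98, SE 0.49, adjusted p = 0.134). In each case both KO-labelled libraries were above both WT-labelled ones, and for Ccl21a the gap was far larger than the spread of the replicates. The T cell markers summed to 6.39 and 4.02 CPM in liver labelled KO against 2.46 and 1.78 CPM in liver labelled WT, and the B cell markers to 6.02 and 3.03 against 2.16 and 0.787 CPM. All 4 tested T cell and both tested B cell markers had positive values and none passed an adjusted p under 0.05. Among them Cd3g passed the study's threshold (log2 fold change 2.16, SE 0.59). The part of T and B cells in the liver values was not tested.

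The other abundant liver members showed no difference that passed. Cxcl12 was at 127 and 152 CPM in liver labelled KO and at 155 and 190.0 CPM in liver labelled WT (log2 fold change -0.31, SE 0.26, adjusted p = 0.557). Ccl9 was at 127 and 64.9 CPM against 52.9 and 62.4 CPM (log2 fold change 0.74, SE 0.33, adjusted p = 0.294). Cxcl1, a neutrophil-attracting ligand, was at 0.995 and 9.51 CPM against 0.975 and 1.63 CPM, so its log2 fold change of 2.003 (SE 0.83) rested on replicate 2 labelled KO alone. The same label and number was also the high library for Cxcl1 in eWAT, at 4.09 CPM against between 0.104 and 0.659 CPM in the other 3. That eWAT library is the one with hepatocyte transcripts, and the part of liver RNA in its Cxcl1 value was not tested. Ccl27a was at 9.48 and 15.8 CPM against 6.98 and 5.87 CPM (log2 fold change 0.97, SE 0.32, adjusted p = 0.207).

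Whether the genotype labels differed by more in one tissue was tested as the interaction of tissue and genotype in 1 fit of all 8 libraries. Ccl6, Ccl24 and Cxcl12 had larger values in eWAT and Ackr4 a lower one, 4 of 42 members tested (7.14% higher and 2.38% lower), where 3.78% of all genes were called higher and 3.16% lower. Ccl6 had a log2 fold change of 3.42 in eWAT and -0.39 in liver, where it was at 8.59 and 5.42 against 12.1 and 6.35 CPM (interaction 3.71, SE 0.57, adjusted p = 0.0163). Cxcl12 had 2.34 in eWAT and -0.31 in liver (interaction 2.58, SE 0.46, adjusted p = 0.0231). Ccl24 had 3.40 and 0.41, since liver was at 2.93 and 2.80 against 2.62 and 1.68 CPM (interaction 2.90, SE 0.65, adjusted p = 0.0442), and this call was lost with upper-quartile scaling (adjusted p = 0.0579) and library-size scaling (0.0896) and when any 1 library other than replicate 1 of eWAT labelled KO was left out. The value for Ackr4 (-4.65, SE 0.70, adjusted p = 0.0151) rests in liver on 7, 14, 5 and 3 counts. Cxcl9 was higher under the KO label in both tissues, and its interaction of 1.90 (SE 0.67, adjusted p = 0.133) did not pass. All 4 calls were lost without replicate 2 of eWAT labelled WT, without replicate 2 of liver labelled KO and without either liver library labelled WT.

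**Figure D5:**
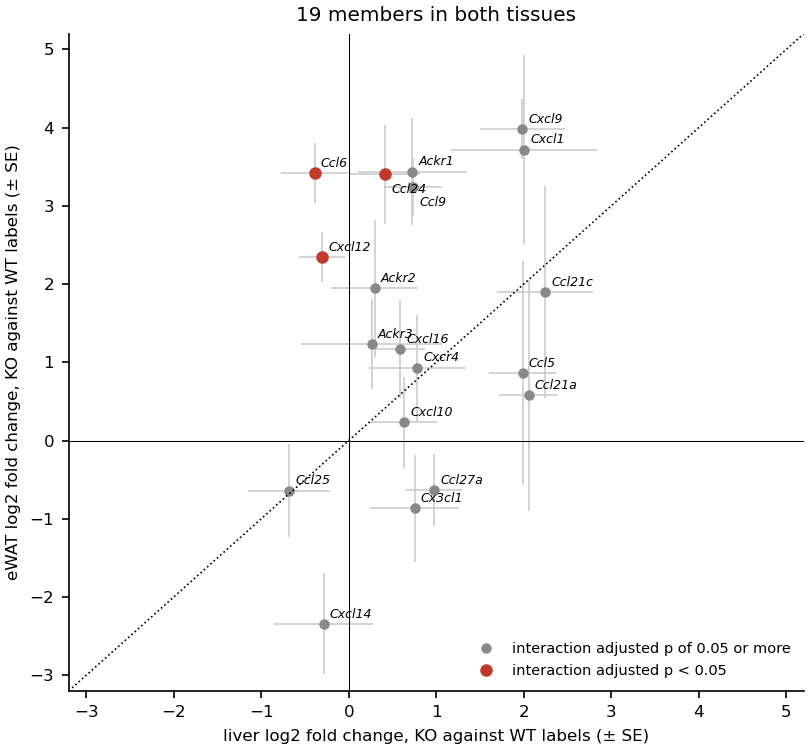
Log2 fold change between the labels in liver (horizontal axis) and in eWAT (vertical axis) with standard errors for 19 of the 20 members tested in both tissues, red where the interaction had an adjusted p under 0.05, with a dotted line of equal change. Ccl6, Ccl24 and Cxcl12 lie far above the line, near 0 in liver, and Ackr4 is not drawn because it was not tested within liver.

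Between tissues in the libraries labelled WT, 11 members were higher in eWAT (26.2%) and 5 in liver (11.9%), where 35.0% and 19.8% of all genes were called. Log2 fold changes here are on a TMM scale of all 8 libraries, and FPKM are the deposited ones. Among the members called, those with the largest fitted values toward eWAT were Ccl8, Ackr4, Cx3cr1, Cx3cl1 and Ccl11. Both eWAT libraries labelled WT carried epididymal epithelium transcripts, and the part of that epithelium in these values was not tested. Cx3cl1 was at 21.1 and 20.1 FPKM in eWAT and 0.15 and 0.19 FPKM in liver (log2 fold change 5.51, SE 0.68, adjusted p = 0.00139), and Ackr4 at 12.7 and 15.5 FPKM against 0.13 and 0.08 FPKM (5.76, SE 0.53, adjusted p = 0.000617). Ccl8, Ccl11 and Cx3cr1 had 3 counts or fewer in both of these liver libraries, and against a floor of 3 counts per library they were at least 5.66-fold, 6.52-fold and 27.3-fold higher in eWAT. The members called toward liver were Cxcl1, Ccl9, Ccl24, Cxcl12 and Cxcl10. Ccl9 was at 6.34 and 3.68 FPKM in eWAT against 18.3 and 21.3 FPKM in liver (log2 fold change -3.38, SE 0.44, adjusted p = 0.00166), and Cxcl12 at 43.2 and 36.9 against 67.4 and 80.1 FPKM (-2.43, SE 0.34, adjusted p = 0.00198). Over the alternatives Cxcl12 ranged from -2.60 to -1.02, Ccl9 from -3.82 to -1.98, Cx3cl1 from 3.09 to 6.90 and Ackr4 from 2.61 to 7.14. Cxcl10 ranged from -1.99 to 0.12. Its call was lost with upper-quartile scaling, library-size scaling, the replicate block and a mean count of at least 50. That of Cxcl1 was lost with library-size scaling and with limma on log2(FPKM + 1), and that of Ccl8 with the latter. The scaling bears on these values, since the median of all genes was 0.61 on this scale and 2.003 with library-size scaling. With the latter, 23 of 42 members were called higher and 3 lower, where 10702 of all 15587 genes were called higher and 1124 lower. In the libraries labelled KO, 10 members were higher in eWAT (23.8%) and 2 in liver, Ccl27a and Cxcl10 (4.76%), where 18.9% and 8.89% of all genes were called. Library-size scaling gave 19 and 0 of 42 members, where 7022 of all 15587 genes were called higher and 105 lower. Replicate 2 of eWAT labelled KO carried hepatocyte transcripts, and their part in this comparison was not tested. Under that label Cxcl12 (log2 fold change 0.16, SE 0.32), Ccl24 (-0.32, SE 0.44) and Ccl9 (-0.97, SE 0.41) were not called between tissues. Neither were Ackr4 (1.10, SE 0.46) and Cx3cr1 (2.23, SE 1.13), although library-size scaling called both, and Cxcl12.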

How the data were processed

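The authors deposited estimated counts (expected counts per gene, not normalized, with 5.44% to 9.98% of a library's values not whole) and FPKM for 19348 genes. The submitters' processing notes name HISAT, Bowtie2 and GRCm38.p6; versions and the counter are not given in the sources used here. Counts were rounded, filtered by filterByExpr, scaled by TMM and tested by edgeR 4.0.16 (quasi-likelihood, R 4.3.3) within each tissue, or over all 8 libraries for the interaction and the tissues, with the Benjamini-Hochberg method applied to every gene tested. A standard error is the log2 fold change over the root of its F statistic. DESeq2 1.42.0 and limma 3.58.1 on log2(FPKM + 1) or log2(FPKM + 0.1) were alternatives, limma being the authors' tool. With 2 libraries per group the spread between libraries, not counting error, limits precision. The symbol rule that sets the members uses no measured value, but it and the gene lists were chosen with earlier results of these data known. Genes were named by these rules: members past either threshold, the 8 most abundant per tissue, Ccl2, the 5 at each end between tissues, Crtc1, up to 4 called genes per pathway list and up to 3 abundant markers per cell type list; other members and markers were named after their values were seen. Coordinates and sequences are RefSeq's on GRCm38. One of the members entered the fits and the counts of members and is not reported here by name or drawn. The tests were tried on simulated data. Figures were made in Python 3.11.15 (matplotlib 3.10.9, pandas 2.3.3).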

Additional observations from a re-analysis of the deposited data

Results flagged for a closer look

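For 4 members the genotype labels differed by another amount in eWAT than in liver by edgeR's test of the interaction of tissue and genotype in 1 fit of 8 libraries. The interaction was 3.71 for Ccl6, 2.90 for Ccl24, 2.58 for Cxcl12 and -4.65 for Ackr4 on the log2 scale, with adjusted p between 0.0151 and 0.0442. The epididymal and hepatocyte transcripts of the eWAT libraries move with these labels or with 1 library, and their part was not tested.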

How the results depend on the processing

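In eWAT the 8 calls became 12 with DESeq2 (adding Ccl7, Ccl8, Cxcl1 and Cxcl14), 10 and 11 with limma on log2(FPKM + 1) and log2(FPKM + 0.1), 7 with upper-quartile scaling (without Ackr1), 5 with library-size scaling (Ackr1, Ccl11 and Ccl24 were lost, and the median of all genes moved from -0.05 to -0.35), 0 with the replicate block, and between 0 and 10 when 1 library was left out, where none was called without either WT-labelled library; members past the study's threshold then numbered between 4 and 11. In liver the count of 0 became 3 with DESeq2, 3 without a low-count filter, 3 with the replicate block and between 0 and 5 when 1 library was left out, and the 4 past the study's threshold between 2 and 5. The 4 interaction calls became 3, without Ccl24, with upper-quartile scaling, library-size scaling, a mean count of at least 50 (which left Ccl24 untested) and the replicate block, 5 with DESeq2, 9 and 8 with limma on log2(FPKM + 1) and log2(FPKM + 0.1), and between 0 and 8 when 1 library was left out. Between tissues, the 16 calls under the WT label became 26 and the 12 under the KO label 19 with library-size scaling, and leaving out 1 library gave between 8 and 20 and between 3 and 20. Deviations from group means of same-numbered libraries correlated at 0.0205 between labels in eWAT and 0.0736 in liver. Between tissues they correlated at 0.0356 (KO) and 0.152 (WT), and the numbers were not taken as pairs. With 2 libraries per group, and hepatocyte transcripts in 1 of them, these values cannot show whether same-numbered liver and eWAT libraries share a mouse. Between tissues the replicate block kept the counts at 16 and 12, of which 12 and 8 were the same members. Under the WT label it lost Ccl21a, Ccr1, Cxcl10 and Cxcr4. The share of all genes called moved with the settings too. In eWAT it was 12.2% in the main fit, 30.0% with DESeq2 and 14.6% and 15.1% with limma, in the order above. In liver it was 0.0854% in the main fit, 2.66% with DESeq2, 1.89% without a low-count filter and 0.700% with the replicate block. For the interaction it was 6.94% in the main fit, 13.2% with DESeq2 and 16.1% and 15.6% with limma. Over 38 gene and comparison values, 436 of 545 alternatives kept direction and side of the threshold, 80 no longer passed, 22 newly passed and 7 turned sign. When 1 library was left out, the eWAT value of Ccl21a ran from -2.38 (without KO-labelled replicate 1) to 2.91 and was -0.25 without WT-labelled replicate 2, those of Ccl21c from -1.46 to 2.82 and of Ccl5 from -1.48 to 3.54 (the low ends without KO-labelled replicate 1), and the liver values of Ccl6 from -0.79 to 0.13 (without WT-labelled replicate 1) and of Cxcl1 from -0.39 (without KO-labelled replicate 2) to 2.87, and Cxcl10 between tissues under the WT label was 0.12 with library-size scaling. Beyond fewer libraries, the cause was not tested. A lone library of a group was assumed to vary like the others.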
